A study of Mus musculus with 30 samples.

Results

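The p53 target genes described here are 10 mouse genes: Trp53, which encodes p53, and Cdkn1a, Mdm2, Ccng1, Bax, Bbc3, Trp53inp1, Sesn2, Eda2r and Phlda3, which p53 activates. They were listed by name from knowledge of the pathway, without a threshold on any measured value, and are 10 of the 55487 genes counted in each embryo. The study sequenced RNA of 23 single preimplantation mouse embryos that carry 0, 1 or 2 copies of a Dis3 null allele, and mapped POU6F1 by ChIP-seq in mouse embryonic stem cells transfected with POU6F1-mCherry. Dis3 encodes a ribonuclease of the RNA exosome, and its null allele lacks exons 3 to 5 after CRISPR-Cas9 editing and end joining. The embryos are offspring of heterozygous parents, after hormone treatment of the mothers, and the genotype of each was read from the DNA left once its RNA had been taken out. Wild-type embryos numbered 6 at embryonic day 2.5 (E2.5) and 3 at day 2.75 (E2.75), het embryos 2 and 5, and null embryos 4 and 3. The comparison of null with het and wild-type embryos asks whether embryos without Dis3 mount a p53 response before they arrest.

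p53 is a transcription factor that is made continuously and degraded through the ubiquitin ligase MDM2. After DNA damage, ribosomal stress or other insults it is stabilised, binds response elements made of a pair of half-sites, and raises genes that halt the cell cycle, promote apoptosis or adjust metabolism. Much of p53 activity is set at the protein level, so the RNA of its targets, rather than that of Trp53, is the usual readout in tissue.

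Each library was made from polyadenylated RNA of 1 embryo with ERCC spike-in RNA added. Reads assigned to genes in the E2.5 wild-type embryos ranged from 5525515 to 14015980, with a median of 10279674. The E2.5 het embryos had 8161847 and 11552921, and the E2.5 null embryos had 9993650, 6478960, 3630727 and 4808323. At E2.75 the wild-type embryos had 3283708, 8030848 and 8644043, and the het embryos had 14013185, 3009380, 10638660, 5100068 and 8895879. The E2.75 null embryos had 1914128, 1690192 and 7051002, and include the 2 shallowest libraries of the 23.

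The share of spike-in counts also differed between the groups. It was 6.23% to 7.03% in the 4 E2.5 null embryos, 2.16% and 4.64% in the het embryos and 3.49% to 7.44% in the wild-type embryos of that stage. At E2.75 it was 3.26% to 5.01% in null, 2.06% to 3.10% in het and 2.53% to 3.70% in wild-type embryos. A higher spike-in share means fewer reads of embryo RNA per spike-in read, and fewer cells and less RNA per cell cannot be told apart in whole embryos. The share of reads outside annotated genes was 32.3% to 43.9% in the 7 null embryos and 21% to 33.4% in the other 16. Its part in the results for the members was not tested.

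Dis3 itself (ENSMUSG00000033166, chr14:99075206-99099770, GRCm38) was read first, as a check of the genotypes. Levels are given in CPM, the read count scaled to the size and composition of its library. The E2.5 wild-type embryos had 147, 134, 109, 63.6, 40.2 and 18.0 CPM, and the E2.75 wild-type embryos 112, 64.4 and 107. Dis3 in het embryos was 58.2 and 59.2 CPM at E2.5, and 42.3, 30.4, 49.6, 43.8 and 36.7 at E2.75. In null embryos it was 16, 2.55, 0 and 14.3 CPM at E2.5, and 12.8, 21.5 and 10.1 at E2.75, where a count of 0 in that library allows up to 0.916 CPM. All 7 null embryos were below all 7 het embryos. The library with label E2.5 wild-type replicate 6, at 18.0 CPM, lay inside the range of the null embryos and below every het embryo, so tests that rest on it are given with and without it. Of the exon bases of Dis3, 325 also belong to Pibf1 on the opposite strand.

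The embryo identity of the libraries was read from 3 lists of marker genes. All 13 preimplantation markers were detected, with median summed levels of 17707, 14737 and 15323 CPM in wild-type, het and null embryos of E2.5 and 6523, 8443 and 8368 in those of E2.75, and Dppa3 was the most abundant per kilobase (mean 9077 CPM per kb). Of 14 cumulus and granulosa markers 10 were detected, with median summed levels in the same order of 23.3, 22.6 and 48.8 CPM at E2.5 and 14.4, 23.5 and 34.1 at E2.75, and Amhr2 led at 10.9 CPM per kb. The 4 others, Ptx3, Inhba, Inha and Cyp11a1, were at 0 in all 23 libraries. All 10 oocyte and polar body markers were detected, with median summed levels of 58.7, 55.3 and 68.0 CPM at E2.5 and 15.7, 24.5 and 28.0 at E2.75, led by Zp3 at 6.44 CPM per kb. The summed cumulus and granulosa level ran from 21.9 to 69.3 CPM in null embryos, 8.44 to 39.7 in het and 13.2 to 38.0 in wild-type embryos, and the part of either somatic or oocyte RNA in the results was not tested.

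Trp53 (ENSMUSG00000059552, chr11:69580359-69591873) encodes the transcription factor. The E2.5 wild-type embryos ranged from 2.98 to 34.8 CPM with a median of 9.96, the het embryos had 23.3 and 17.2, and the null embryos 56.9, 8.84, 5.19 and 17.4. At E2.75 the wild-type embryos had 41.0, 60.4 and 58.5 CPM, the het embryos 71.1, 25.9, 53.2, 48.8 and 38.3, and the null embryos 32.0, 67.7 and 161. The genotypes overlapped at both stages, and all 3 E2.75 wild-type embryos were above all 6 of E2.5. Wrap53, whose gene starts 103 bases away on the opposite strand, shares no exon base with Trp53 in the annotation used, and its medians were 20.6, 16.9 and 24.2 CPM in wild-type, het and null embryos of both stages.

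Mdm2 (ENSMUSG00000020184, chr10:117688875-117710758) encodes the ligase that degrades p53 and is itself a p53 target, which closes a negative feedback loop. At E2.5 the wild-type embryos ranged from 12.4 to 190 CPM with a median of 41.8, the het embryos had 75.2 and 45.5, and the null embryos 123, 105, 99.5 and 81.8. At E2.75 the wild-type embryos had 118, 126 and 167, the het embryos 50.3, 48.2, 255, 49.8 and 57.2, and the null embryos 55.2, 268 and 140. All 4 E2.5 null embryos were above both het embryos and above 5 of the 6 wild-type embryos of that stage; wild-type replicate 1, at 190 CPM, was above them. At E2.75 het replicate 3 stood with the high null embryos, and null replicate 1 with the low het embryos.

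Cdkn1a (ENSMUSG00000023067, chr17:29090976-29100727) encodes p21, the inhibitor of cyclin-dependent kinases through which p53 arrests the cell cycle. Its promoter is shown because it is the member called between null and het embryos with the stages combined. The 247 bases before its first start in GENCODE, with letters from RefSeq on build GRCm38.p6, lie at chr17:29090729-29090975 on the plus strand. Capitals mark 2 p53 half-sites, where a half-site is the 10-base p53 consensus, and another stretch of 10 bases with 1 mismatch to it. That consensus is its own reverse complement, so a match reads on both strands.
Cdkn1a promoter: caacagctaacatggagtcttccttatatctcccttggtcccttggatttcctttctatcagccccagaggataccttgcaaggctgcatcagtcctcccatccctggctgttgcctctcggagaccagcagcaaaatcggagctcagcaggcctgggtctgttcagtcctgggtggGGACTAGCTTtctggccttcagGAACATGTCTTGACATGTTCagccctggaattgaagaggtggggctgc
The capitals hold a pair of half-sites 12 bases apart with no mismatch and an adjoining pair with 1 mismatch, which begin 73 bases before the RefSeq start, a few bases inside the gene as given by GENCODE, and leave 31 bases between. A pair with no mismatch and a spacer of at most 13 bases was found in 0.0731% of 32851 promoters of 300 bases. A match describes the letters and is not evidence of binding in these embryos.

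The E2.5 wild-type embryos had 203 to 1132 CPM of Cdkn1a with a median of 343, the het embryos 367 and 342, and the null embryos 1036, 1023, 797 and 567. Its E2.75 levels were 286, 371 and 526 in wild-type, 123, 262, 687, 340 and 169 in het, and 273, 655 and 824 in null embryos. All 4 E2.5 null embryos were above both het embryos. Of the 6 wild-type embryos of that stage only replicate 1, at 1132, and replicate 2, at 569, reached the range of the null embryos. At E2.75 the groups overlapped through het replicate 3 and null replicate 1. The 273 exon bases that Cdkn1a shares with AC167363.2, an uncharacterised transcript on the opposite strand with a median count of 0, are 7.68% of its exons.

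Ccng1 (ENSMUSG00000020326, chr11:40748552-40755311) encodes cyclin G1, a p53 target that acts with protein phosphatase 2A on MDM2. The E2.5 wild-type embryos ranged from 57.0 to 655 CPM with a median of 66.9, the het embryos had 159 and 145, and the null embryos 263, 71.9, 58.3 and 157. At E2.75 the wild-type embryos had 120, 282 and 127, the het embryos 109, 105, 405, 76.1 and 76.8, and the null embryos 85.8, 284 and 202. The genotypes overlapped at both stages, and the highest level at each belonged to wild-type replicate 1 at E2.5 and to het replicate 3 at E2.75.

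Bax (ENSMUSG00000003873, chr7:45461697-45466898) and Bbc3 (ENSMUSG00000002083, chr7:16308393-16318205) are the apoptotic members: BAX permeabilises the outer mitochondrial membrane, and BBC3, known as PUMA, frees it by binding the BCL2 proteins that restrain it. Stretches of the Bax and Ccng1 promoters, from RefSeq on GRCm38.p6 and on the minus strand, are shown because they are the other members with a pair of half-sites at 1 mismatch or fewer. Capitals mark the pair. The Bax stretch at chr7:45467060-45467140 has a spacer of 1 base, and the Ccng1 stretch at chr11:40755432-40755511 has none.
Bax promoter: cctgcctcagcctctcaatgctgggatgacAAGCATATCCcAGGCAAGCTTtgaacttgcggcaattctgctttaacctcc
Ccng1 promoter: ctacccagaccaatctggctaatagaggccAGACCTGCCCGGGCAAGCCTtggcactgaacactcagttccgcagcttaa
A pair with at most 1 mismatch was found in 1.09% of the 32851 promoters and at 3 of the 9 members in the table, which have 12 promoters there. By gene, counting any promoter, the share was 1.24% of 27025 genes. A single half-site was found in 8.36% of the promoters, or 9.55% of the genes, and at 5 of the 9 members, which were Bax, Ccng1, Cdkn1a, Mdm2 and Trp53. The Bax stretch lies inside the gene Gm45808 but in none of its exons.

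Bax had 158 to 270 CPM with a median of 244 in E2.5 wild-type embryos, 140 and 224 in het embryos, and 246, 251, 192 and 221 in null embryos. At E2.75 it had 99.0, 146 and 107 CPM in wild-type, 161, 232, 175, 124 and 122 in het, and 222, 210 and 228 in null embryos. The genotypes overlapped at E2.5. At E2.75 the 3 null embryos were above all 3 wild-type embryos and above 4 of the 5 het embryos, and the wild-type embryos of that stage were below all 6 of E2.5. Bax shares 192 exon bases, 12.2% of its exons, with Gm45808 on the same strand, a gene with a median count of 0.

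Bbc3 had the lowest median per kilobase of exon. The E2.5 wild-type embryos ranged from 0 to 21.5 CPM with a median of 2.84, the het embryos had 4.79 and 1.67, and the null embryos 28.5, 18.2, 2.14 and 16.9. The count of 0 was in the library with label E2.5 wild-type replicate 6, where it allows up to 0.291 CPM. At E2.75 the wild-type embryos had 48.5, 42.3 and 23, the het embryos 12, 13.3, 65.8, 2.13 and 1.90, and the null embryos 20.2, 50.8 and 48.3. Of the E2.5 null embryos 3 were above 5 of the 6 wild-type and both het embryos, and replicate 3, at 2.14, was among the low ones. At E2.75 all 3 null embryos were above 4 of the 5 het embryos and interleaved with the wild-type embryos.

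Trp53inp1 (ENSMUSG00000028211, chr4:11156431-11174379) encodes a stress-induced nuclear protein that promotes p53 activity and apoptosis. The E2.5 wild-type embryos ranged from 53.3 to 355 CPM with a median of 112, the het embryos had 149 and 194, and the null embryos 362, 156, 121 and 211. Its E2.75 levels were 297, 303 and 337 CPM in wild-type, 116, 77.5, 367, 93.5 and 94.4 in het, and 110, 320 and 318 in null embryos. At E2.75 the wild-type embryos, null replicates 2 and 3 and het replicate 3 were all at 297 CPM or more, and the other 5 embryos at 116 or less.

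Sesn2 (ENSMUSG00000028893, chr4:132492032-132510501) encodes sestrin 2, which lowers mTORC1 signalling under stress. It had 11.3 to 148 CPM with a median of 47.6 in E2.5 wild-type embryos, 93.0 and 58.1 in het embryos, and 228, 66.1, 167 and 68.6 in null embryos. Its E2.75 levels were 355, 203 and 261 CPM in wild-type, 42.1, 63.9, 261, 101 and 86.8 in het, and 122, 235 and 178 in null embryos. At E2.5 null replicates 1 and 3 were the highest. At E2.75 the null embryos were above 4 of the 5 het embryos and overlapped the lower wild-type embryos.

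Eda2r (ENSMUSG00000034457, chrX:97333840-97377216) encodes a receptor of the tumour necrosis factor receptor family, and Phlda3 (ENSMUSG00000041801, chr1:135766119-135769136) a protein that keeps AKT from the membrane. Eda2r had 42.1 to 177 CPM with a median of 68.9 in E2.5 wild-type embryos, 87.5 and 95.1 in het embryos and 124, 78.5, 87.0 and 83.9 in null embryos. At E2.75 it had 193, 151 and 140 CPM in wild-type, 44.9, 60.6, 114, 63.3 and 78.5 in het, and 124, 128 and 214 in null embryos. The 3 E2.75 null embryos were above all 5 het embryos of that stage and overlapped the wild-type embryos. Phlda3 had 35.9 to 246 CPM with a median of 54.0 in E2.5 wild-type embryos, 85.1 and 156 in het embryos and 314, 251, 96.5 and 318 in null embryos. At E2.75 Phlda3 had 138, 314 and 237 CPM in wild-type, 129, 49.1, 340, 56.1 and 57.0 in het, and 59.2, 395 and 356 in null embryos. At E2.5 null replicates 1, 2 and 4 were above all other embryos for Phlda3, and null replicate 3, at 96.5, was inside their range.

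**Figure D1:**
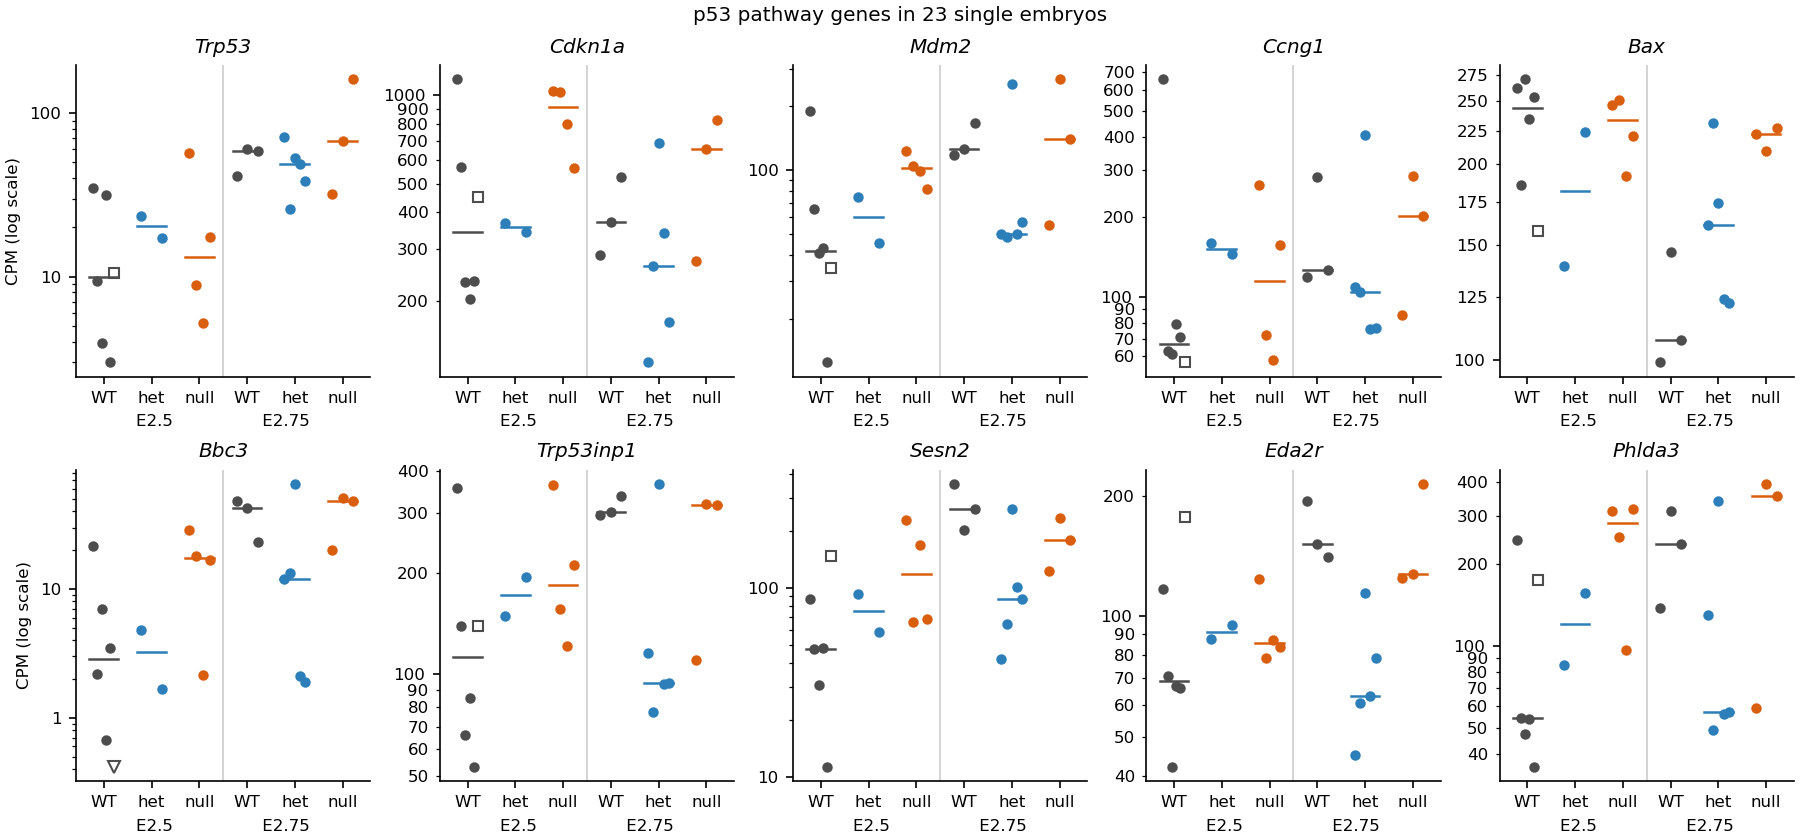
Level of each of the 10 members in every embryo, in CPM on a log axis, by genotype (grey wild-type, blue het, orange null) and stage, with bars at the group medians. The open square is the library with label E2.5 wild-type replicate 6, and the open triangle is its count of 0 for Bbc3; the null points of all 10 members overlap those of het and wild-type embryos when the stages are read together.

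Per kilobase of exon, which allows levels of different genes to be compared, the medians over the 23 embryos ran in the order Bax (133 CPM per kb), Cdkn1a (104), Phlda3 (88.6), Ccng1 (31.1), Sesn2 (26.8), Trp53inp1 (23), Eda2r (14.8), Mdm2 (14.8), Trp53 (7.92) and Bbc3 (6.24). Most neighbours in that order were not separated by their spread. Bax was above Cdkn1a per kilobase in only 8 of 23 embryos, Eda2r above Mdm2 in 12, and Trp53 above Bbc3 in 13. Phlda3 was above Ccng1 in 22 embryos, and Trp53inp1 above Eda2r and Mdm2 above Trp53 in 20 each. The widest gap in the order separated Bax, Cdkn1a and Phlda3 from the other 7 members.

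Differences between genotypes were tested over all genes with edgeR's quasi-likelihood test and Benjamini-Hochberg adjustment, with calls made where the adjusted p was under 0.1 and the log2 fold change was beyond 1 in either direction. All 10 members passed the filter on low counts in every fit. With the stages combined, 1 of 10 members was called between the 7 null and 7 het embryos, against 5.73% of the 13415 genes tested. That member was Cdkn1a, whose medians were 797 CPM in null and 340 in het embryos, with a log2 fold change of 1.18 (SE 0.378, 95% interval 0.40 to 1.95, unadjusted p 0.00428, adjusted p 0.0806, edgeR). Of the null embryos 6 of 7 were above the het median. A share of 1 in 10 is near the background, and the call lies close to the threshold: with stage added as a covariate the log2 fold change was 1.06 with an adjusted p of 0.123, and over all alternatives run the adjusted p ranged from 0.0286 to 0.854. Leaving out any 1 of the 4 E2.5 null embryos, of E2.75 het replicates 1, 2, 4 and 5, or E2.75 null replicate 3 also gave 0 members called, with Cdkn1a log2 fold changes of 1.03 to 1.46 over the 14 fits that each left out 1 embryo. Without the library with label E2.5 wild-type replicate 6, whose spread enters this fit, Cdkn1a was still called. The next members by fold were Phlda3 at 1.04 (95% interval -0.01 to 2.08, adjusted p 0.292, edgeR), Bbc3 at 0.86 (adjusted p 0.703) and Eda2r at 0.62 (adjusted p 0.308).

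All 10 members had a positive fitted log2 fold change between null and het embryos, where 51.1% of all genes tested did. Their median was 0.59 beside 0.02 over all genes tested. Most members vary together across embryos, so the 10 signs are not independent of each other. Ccng1 was lowest at 0.06, with an interval from -1.01 to 1.13. These are differences in the share of each library. Scaled to the spike-ins, the median over all genes was -1.08, with and without the library with label E2.5 wild-type replicate 6, and 7 of the 10 members turned negative while Cdkn1a (0.10), Bbc3 (0.09) and Phlda3 (0.16) did not. On either scale each member lay above the median of all genes, and on the spike-in scale 0 members were called, beside 35.6% of genes (edgeR).

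Between the 7 null and 9 wild-type embryos 0 of 10 members were called by edgeR, against 5.25% of the genes tested, and DESeq2 also called 0. At an unadjusted p under 0.05, with 15.1% of genes, there was 1 member, Cdkn1a, with a log2 fold change of 0.73 (SE 0.35, 95% interval 0.02 to 1.45, adjusted p 0.316, edgeR) and 6 of 7 null embryos above the wild-type median of 371 CPM. Without the library with label E2.5 wild-type replicate 6 the count was again 0 and the Cdkn1a log2 fold change 0.74 (adjusted p 0.355, edgeR). Without E2.5 wild-type replicate 1, the embryo with the highest Cdkn1a, that value was 1.04 with an adjusted p of 0.0685 (edgeR) and Cdkn1a was called. The share of all genes called in that fit is not given here, so this call has no background beside it. Over the 16 fits that each left out 1 embryo, the adjusted p of Cdkn1a ran from 0.0685 to 0.469. The median log2 fold change of the members was 0.36 beside -0.02 over all genes, 9 were positive, and Ccng1 was at -0.07. Of all genes tested 48.6% were positive. Spike-in scaling put the median of all genes at -0.37 in this comparison and turned Trp53inp1, Sesn2 and Eda2r negative; without that wild-type replicate 6 it was -0.42, and Bax turned negative too.

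Between het and wild-type embryos 0 of 10 members were called by edgeR, against 0% of the genes tested, with 0 members and 934 genes at an unadjusted p under 0.05. DESeq2 called 65 genes and 0 members. The median over the members was -0.20 beside -0.03, where 48.2% of all genes were positive. Of the members 9 of 10 were negative, Trp53 being the exception at 0.50. Spike-in scaling put the median of all genes in this comparison at 0.71 and turned those 9 members positive. With the library with label E2.5 wild-type replicate 6 left out, edgeR called 0 genes, 810 genes and 0 members were at an unadjusted p under 0.05, DESeq2 called 46 genes and 0 members, the median over the members was -0.30 with 9 negative, and 8 of these turned positive on the spike-in scale, all but Sesn2. The 3 genotype comparisons share embryos, so their values for a member are not independent: Cdkn1a had 1.18 for null against het, 0.73 for null against wild-type and -0.44 for het against wild-type.

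**Figure D2:**
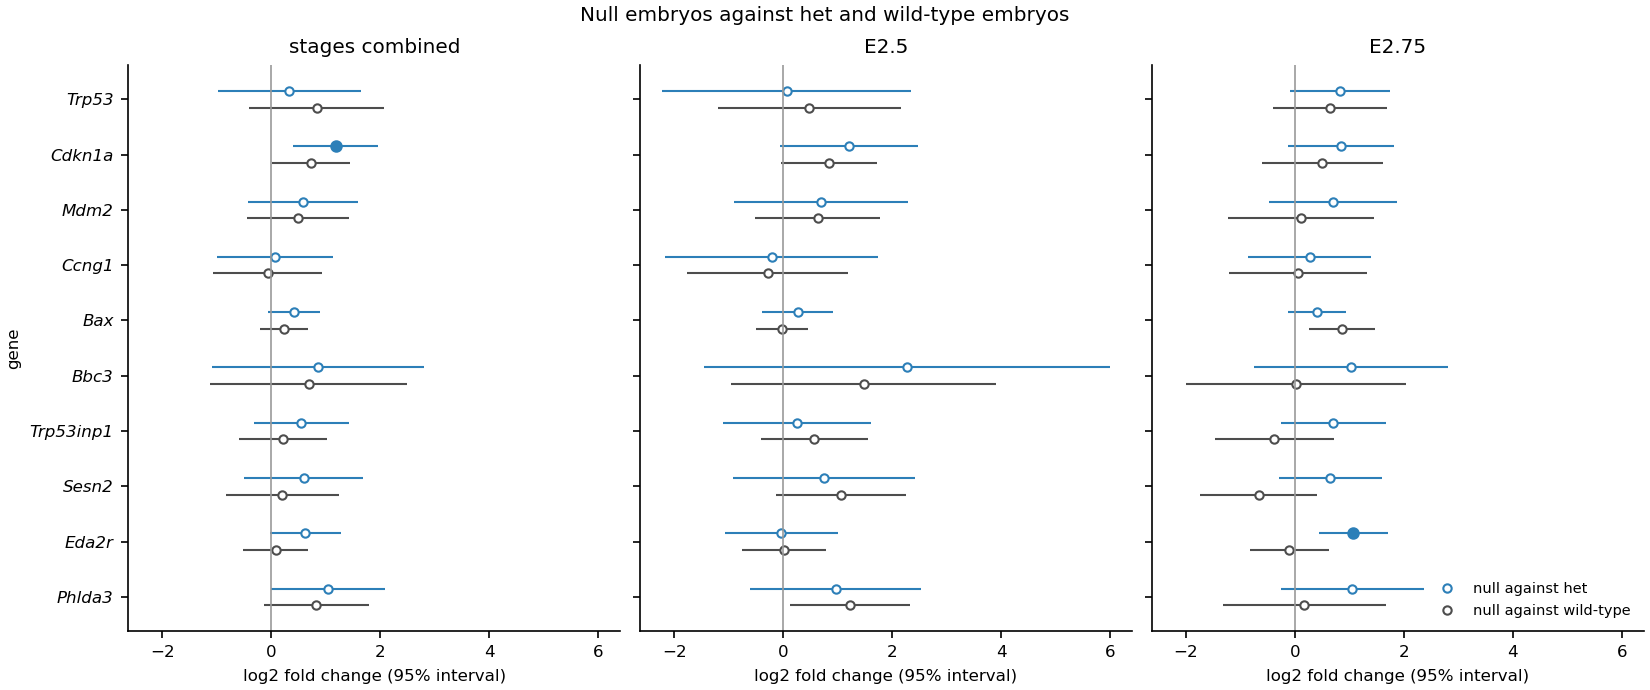
Log2 fold change of each member with its 95% interval for null against het (blue) and null against wild-type embryos (grey), from edgeR, with filled symbols for members called. Cdkn1a is filled for null against het with the stages combined and Eda2r for null against het at E2.75, and most intervals include 0.

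With the stages combined 0 of 10 members had all null embryos above or all below the het embryos, against 2.88% of the genes tested (295 above and 92 below). The count was 0 against wild-type embryos, beside 1.7% of genes, and 0 without the library with label E2.5 wild-type replicate 6, beside 1.83%. These counts carry no test.

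At E2.5 alone 0 of 10 members were called between the 4 null and 2 het embryos, against 0.0126% of the 15904 genes tested by edgeR, with 0 members at an unadjusted p under 0.05. DESeq2 called 598 genes and 0 members there. Cdkn1a had a log2 fold change of 1.21 (95% interval -0.06 to 2.47, adjusted p 0.543, edgeR), all 4 null embryos being above both het embryos. Against the 6 wild-type embryos of E2.5 0 members were called by edgeR, beside 1.82% of genes, and 0 by DESeq2. At an unadjusted p under 0.05, with 15.0% of genes, there was 1, Phlda3, at 1.23 (95% interval 0.12 to 2.33, adjusted p 0.284, edgeR). Cdkn1a was at 0.84 there (adjusted p 0.362), and without wild-type replicate 1 it was at 1.31 (adjusted p 0.0863, edgeR) and called. The share of all genes called without wild-type replicate 1 is not given here, so that call has no background beside it. Without the library with label E2.5 wild-type replicate 6 no member was called, Sesn2 was at 1.54 (adjusted p 0.186), Phlda3 at 1.45 (adjusted p 0.221) and Cdkn1a at 0.83 (adjusted p 0.407). Spike-in scaling put the median of all genes at E2.5 at -1.15 against het embryos, where only Bbc3 among the members was still positive and Cdkn1a was at -0.02, and at -0.46 against wild-type embryos, where it turned Eda2r negative. Without that wild-type replicate 6 the medians were -1.16 and -0.45, only Bbc3 was again positive against het embryos, Eda2r was not negative against wild-type embryos, and DESeq2 called 1 member, Sesn2, between null and wild-type embryos, beside 1385 of 29271 genes.

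At E2.75 alone 1 of 10 members was called between the 3 null and 5 het embryos, against 4.82% of the 14442 genes tested. It was Eda2r, at a log2 fold change of 1.07 (SE 0.297, 95% interval 0.44 to 1.70, adjusted p 0.0699, edgeR), with all 3 null embryos above all 5 het embryos. All 10 members were positive, where 48.3% of all genes were, with a median of 0.77 beside -0.04 over all genes. Of the embryos left out 1 at a time, het replicate 3 moved the count of members called most. Without it 7 were called: Cdkn1a (1.33, adjusted p 0.0865), Mdm2 (1.53, 0.0519), Bbc3 (2.4, 0.0745), Trp53inp1 (1.33, 0.0385), Sesn2 (1.23, 0.0613), Eda2r (1.28, 0.0291) and Phlda3 (1.83, 0.0781), by edgeR and with 674 genes called in place of 696. Het replicate 3 had the highest level of its 5 embryos for 8 of the 10 members, so leaving it out lowers their het levels. These 7 calls therefore follow from the members' own values and are no separate support. Leaving out het replicate 1, 2, 4 or 5, or null replicate 2 or 3, gave 0 members, and leaving out null replicate 1 gave Eda2r alone. The Eda2r adjusted p over the 8 fits that each left out 1 embryo ran from 0.0291 to 0.314 (edgeR). Apart from the fit without het replicate 3, the numbers of all genes called in these fits are not given here. Spike-in scaling put the median of all genes at -0.74 at this stage, turned Ccng1 and Bax negative and left 0 members called, beside 17.3% of genes.

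**Figure D3:**
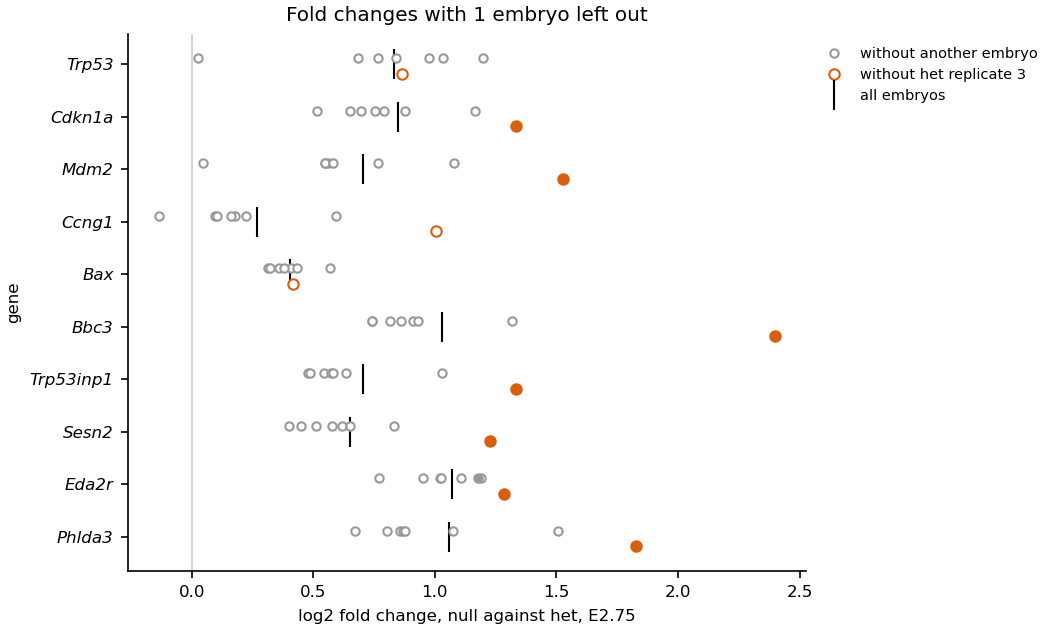
Log2 fold change of each member between null and het embryos at E2.75, with all embryos (bars), without het replicate 3 (orange) and without each other embryo (grey), filled where the member was called. Without het replicate 3 there are 7 filled, and without null replicate 1 only Eda2r.

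Against the 3 wild-type embryos of E2.75 0 of 10 members were called by edgeR, beside 4.54% of genes, and 0 by DESeq2. At an unadjusted p under 0.05, with 18.3% of genes, there was 1, Bax, at a log2 fold change of 0.86 (95% interval 0.25 to 1.46, adjusted p 0.130, edgeR), with 3 of 3 null embryos above every wild-type embryo. The median over the members was 0.08 beside -0.01, where 49.6% of all genes were positive. Of the members 7 were positive and Sesn2 (-0.66), Trp53inp1 (-0.38) and Eda2r (-0.10) negative. The raised level of Eda2r against het embryos thus had no counterpart against wild-type embryos of the same stage, whose own Eda2r levels were 140 to 193 CPM. Spike-in scaling put the median of all genes at -0.40 in this comparison and turned Mdm2, Ccng1, Bbc3 and Phlda3 negative.

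An interaction term tested whether the genotype difference itself changed with stage. For null against het 0 members and 0% of 18677 genes were called by edgeR, with 0 members at an unadjusted p under 0.05, and DESeq2 called 81 genes and 0 members. Eda2r had the smallest p, with a difference of 1.08 between its log2 fold changes (95% interval -0.09 to 2.25, adjusted p 0.774, edgeR). For null against wild-type 0 members and 0% of genes were called by edgeR, with 1 member and 11% of genes at an unadjusted p under 0.05, and DESeq2 called 344 genes and 0 members. That member was Bax at 0.89 (95% interval 0.14 to 1.63, adjusted p 0.373, edgeR), and Sesn2 followed at -1.73 (adjusted p 0.457). Without the library with label E2.5 wild-type replicate 6 Bax was at 0.97 (adjusted p 0.293) and Sesn2 at -2.19 (adjusted p 0.291), both with an unadjusted p under 0.05, 0 members were called by edgeR or DESeq2 in either interaction, and DESeq2 called 101 and 545 genes. No member is therefore described as specific to a stage.

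Between E2.75 and E2.5 wild-type embryos 1 of 10 members was called by edgeR, against 7.38% of the genes tested, and 6 had an unadjusted p under 0.05, as 20.1% of genes did. The count depended on the analysis: it was 7 with spike-in library sizes (3277 of 18677 genes called), 6 without the filter on low counts (2104 of 33616) and 3 with DESeq2 (1948 of 33616). Sesn2, called in each of these, rose by 2.14 (SE 0.546, 95% interval 1.01 to 3.26, adjusted p 0.0228, edgeR), with all 3 E2.75 embryos above all 6 of E2.5. Bax was at -0.95 (95% interval -1.48 to -0.42, adjusted p 0.0301, edgeR), short of the fold threshold, and at -0.000523 on the spike-in scale. Trp53 was at 1.77 (adjusted p 0.129) and Bbc3 at 2.69 (adjusted p 0.139). Without the library with label E2.5 wild-type replicate 6 there were 3 called, Sesn2 (2.60), Eda2r (1.15) and Bax (-1.04), beside 1530 of 18513 genes, and on the spike-in scale 7, among them Sesn2 and Eda2r but not Bax (-0.097), beside 2965 genes. Without E2.75 wild-type replicate 1 there were 0, beside 4.15% of genes. Without E2.5 replicate 1 there were 5 (beside 6.91% of genes), and without E2.5 replicate 2 (6.08%), E2.5 replicate 4 (7.77%) or E2.75 replicate 2 (4.6%) there were 2.

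Between E2.75 and E2.5 null embryos 0 members were called by edgeR, against 3% of genes, and DESeq2 called 1, Trp53, beside 1380 of 33616 genes. Trp53 was also the 1 member with an unadjusted p under 0.05, where 16.4% of genes were, at 1.96 (95% interval 0.40 to 3.52, adjusted p 0.196, edgeR). Without E2.5 null replicate 1 edgeR called Trp53, at 3.06 (adjusted p 0.0412), beside 4.15% of genes. Cdkn1a was at -0.56 in null and -0.25 in wild-type embryos. Spike-in scaling put the median of all genes at 0.89 in the wild-type and 0.97 in the null stage comparison, and on that scale Cdkn1a was positive in both, at 0.98 and 0.46; without the library with label E2.5 wild-type replicate 6 it was at 0.99 in the wild-type comparison, where the median of all genes was 0.91.

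Some embryos were high or low within their group for most members. E2.75 het replicate 3 had the highest level of its 5 embryos for 8 of the 10 members, and its median deviation from the group mean was 1.54 log2 over the members and 0.03 over all genes. E2.5 wild-type replicate 1 was the highest of 6 for 7 members, with a median deviation of 1.66 beside 0.02. E2.5 null replicate 1 was the highest of 4 for 8 members (median deviation 0.70), and E2.75 null replicate 1 the lowest of 3 for 9 members (-0.97). These deviations are taken from the mean of each group, so a rise shared by the embryos of a group is not seen in them. E2.75 het replicate 3 also had 21.7 CPM of the trophectoderm gene Gata3, where the other 4 het embryos of that stage had 219, 284, 221 and 267. This gene was singled out after its values were seen, and its bearing on the members was not tested. Other trophectoderm markers of this embryo are not given here. The preimplantation markers summed to 6896 CPM in it and to 7751, 9440, 9043 and 8443 in the other het embryos of E2.75.

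**Figure D4:**
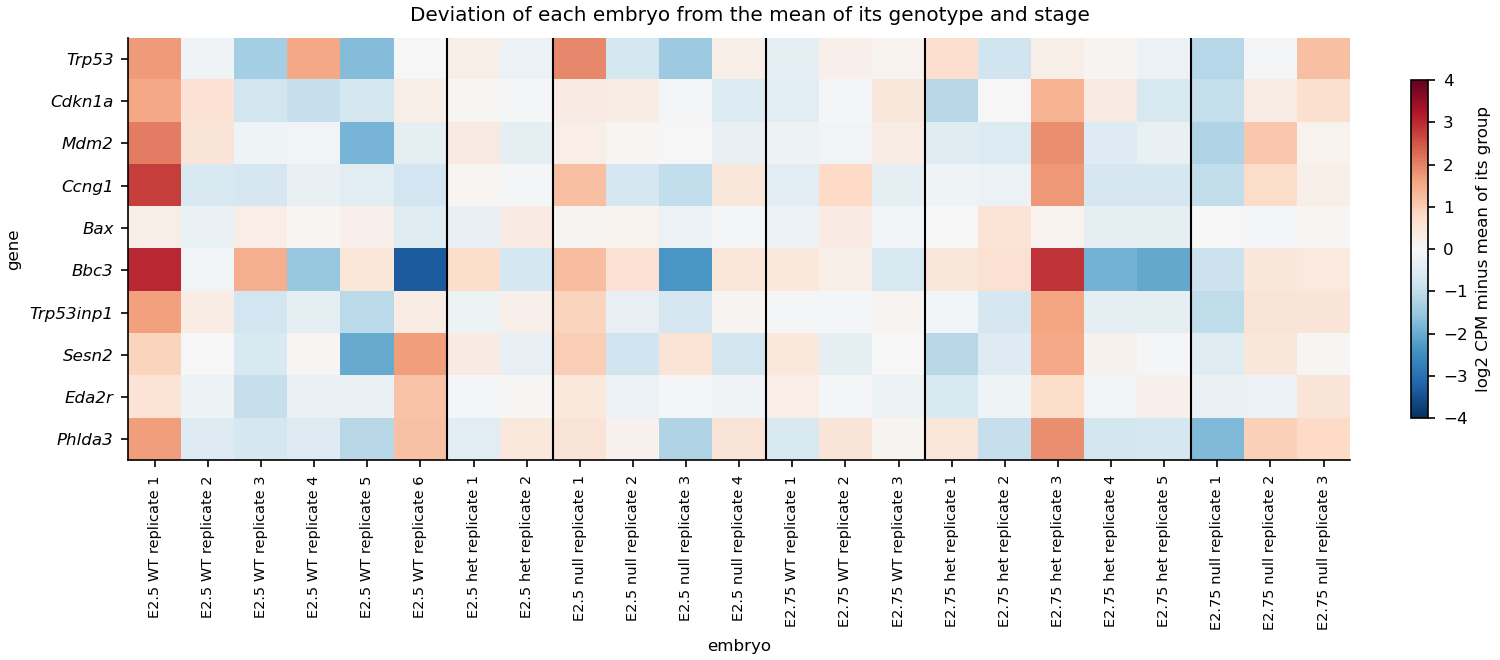
Deviation of each embryo (columns) from the mean of its genotype and stage for each member (one line of the map per member), in log2 CPM. E2.5 wild-type replicate 1 and E2.75 het replicate 3 are high, and E2.75 null replicate 1 low, for most members other than Bax.

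Over the 45 pairs of members the median Pearson r of these deviations across 23 embryos was 0.525, with 40 pairs positive, beside 0.000251 (50% positive) over all pairs of genes tested. The depth and composition of a library enter every gene of its embryo, and these r values are a description without a test. Trp53inp1 and Phlda3 had the highest r (0.89, Spearman rho 0.90) and Bax and Sesn2 the lowest (-0.38). Without E2.5 wild-type replicate 1 and E2.75 het replicate 3, the median was 0.41 and 35 pairs were positive. The 9 pairs of Bax had a median r of 0.02, from -0.38 with Sesn2 to 0.38 with Ccng1 and 0.58 with Bbc3, and the 36 pairs without Bax had 0.62. Leaving out the library with label E2.5 wild-type replicate 6, the median over the 45 pairs was 0.63 with 41 positive, and it was 0.06 with and 0.66 without Bax. With Cdkn1a itself the r was 0.79 for both Trp53inp1 and Mdm2, 0.65 for Phlda3, 0.63 for both Ccng1 and Sesn2, 0.60 for Eda2r, 0.39 for Bbc3, 0.38 for Trp53 and 0.02 for Bax.

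Outside the members, the 5 genes whose deviations were most like those of Cdkn1a over the 23 embryos, among 13415 genes, were Mastl (r 0.91, rho 0.86), Pmaip1 (0.84, 0.79), 1110008L16Rik (0.81, 0.63), Plk2 (0.79, 0.73) and Rnf169 (0.77, 0.75). Without the 2 embryos farthest from the median of Cdkn1a, which were E2.5 wild-type replicate 1 and E2.75 het replicate 3, r was 0.85, 0.76, 0.64, 0.65 and 0.69 in that order. When the library with label E2.5 wild-type replicate 6 was left out, Mastl, Pmaip1, 1110008L16Rik and Plk2 were again first, and Ube2d2a (0.79) took the place of Rnf169. Mastl had 61.4 to 87.0 CPM in E2.5 null embryos, 68.2 and 76.6 in het and 31.6 to 89.3 in wild-type embryos. None of the 5 was called by edgeR in the 7 genotype comparisons.

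Other genes of the pathway were read from fixed lists. Of 23 regulators of p53, 22 were tested for null against het with the stages combined and 0 were called, with a median log2 fold change of 0.10 beside 0.02 over all genes. The most abundant per kilobase, Usp7, which encodes a deubiquitinase of p53 and MDM2, had a mean of 74.6 CPM per kb. Against E2.75 wild-type embryos 1 of 22 tested regulators was called, beside 4.54% of all genes. It was Atm, which encodes a kinase of the DNA damage response. It had 267, 202 and 258 CPM in null and 102, 88.3 and 138 in wild-type embryos, at 1.10 (adjusted p 0.0844, edgeR), and at 0.62 (adjusted p 0.440) after spike-in scaling. The p53 relatives Trp63 and Trp73 were near 0: their summed level had a median of 0 CPM in wild-type and in het embryos and 3.05 in null embryos, the highest embryo being E2.75 het replicate 3 at 10.3, and Trp73 led at 0.156 CPM per kb.

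Of 8 tested arrest targets of p53 beyond the members, 0 were called for null against het and the median was 0.96. Against wild-type embryos with the stages combined 1 of 8 was called, beside 5.25% of all genes. It was Gdf15, which encodes a stress-induced cytokine. Gdf15 was at 0 in 6 of 9 wild-type embryos, with a highest level of 0.49 CPM, while its null levels were 1.35, 0, 0 and 10.1 CPM for E2.5, then 4.44, 3.08 and 9.14 for E2.75 (adjusted p 0.0345, edgeR), so a fold would rest on a few counts and is not given; without the library with label E2.5 wild-type replicate 6 the adjusted p was 0.0568. At E2.75 1 of 8 was called against wild-type embryos, beside 4.54% of all genes. It was Sfn, the arrest gene with the highest level (mean 365 CPM per kb). Sfn had 823, 745 and 1398 CPM in null and 185, 308 and 279 in wild-type embryos of E2.75. Its log2 fold change was 1.89 (adjusted p 0.0201, edgeR), and 1.44 after spike-in scaling. Het embryos of that stage had 289 to 838 CPM of Sfn, and Sfn was not called for null against het.

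Of 10 tested apoptosis targets 0 were called for null against het, with a median of -0.05, and Siva1 was the most abundant at 144 CPM per kb. Of 9 tested metabolic and redox targets 1 was called, in the negative direction, beside 5.73% of all genes. The list median was -0.74, and Tigar was the most abundant (126 CPM per kb). The target called was Gls2, for the p53-induced glutaminase, with medians of 6.55 CPM in null and 22.7 in het embryos. Its log2 fold change was -1.89 (95% interval -3.19 to -0.58, adjusted p 0.0987, edgeR), and -3.03 after spike-in scaling. Of 9 DNA repair and replication targets 0 were called, with a median of 0.22 and Psrc1 most abundant at 32.8 CPM per kb. Among the 14 tested genes of the BCL2 family and caspases, led by Bok (218 CPM per kb), 0 were called for null against het (median -0.39). Against wild-type embryos with the stages combined 1 of 14 was called, Bid, beside 5.25% of all genes. Bid was lower in null embryos, with medians of 3.57 and 14.8 CPM, at -1.85 (adjusted p 0.0590, edgeR). Without the library with label E2.5 wild-type replicate 6 it was at -1.80 (adjusted p 0.0860, edgeR).

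The 12 mitotic genes that are lowered through p53 and p21 had a median of -0.26 for null against het with the stages combined, with 0 called, and Cdc20 was the most abundant at 215 CPM per kb. At E2.75, 1 of 12 was called against het embryos and 4 of 12 against wild-type embryos, all lower in null, beside 4.82% and 4.54% of all genes. Cdc25c, the phosphatase that activates CDK1, had 24.1, 16.9 and 13.3 CPM in null, 47.5 to 63.0 in het and 87.9, 74.0 and 120 in wild-type embryos, so the 3 null embryos were below all 8 others. Its log2 fold change was -1.65 against het (adjusted p 0.0168, edgeR) and -2.43 against wild-type embryos (adjusted p 0.00517). The others called against wild-type embryos were Cdc20 (-1.39), Plk1 (-1.20) and Ccnb1 (-1.17), and all 4 were lower and called after spike-in scaling too. At E2.5 0 of the 12 were called by edgeR against het or wild-type embryos, with or without the library with label E2.5 wild-type replicate 6, where few genes of any kind were called (0.0126% and 1.82%). From E2.5 to E2.75, 2 of the 12 were called higher in wild-type embryos (median 0.28), beside 7.38% of all genes. Without that replicate 6 there were again 2, Cdc20 and Plk1 (beside 8.26%). In null embryos 0 were called between the stages (median -0.32), beside 3% of genes. The part of this stage change in the E2.75 differences was not tested.

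Of the preimplantation markers 2 of 13 were called against het embryos with the stages combined, beside 5.73% of all genes, both lower in null: Gata3 at -2.12 (adjusted p 0.00942, edgeR) and Krt18 at -2.95 (adjusted p 0.0352). Nanog was called as well without the library with label E2.5 wild-type replicate 6, and so was the granulosa gene Amhr2 against wild-type embryos. Against wild-type embryos with the stages combined 0 of 13 were called, and 0 against either genotype at E2.5. Against het embryos at E2.75 there were 2, Krt18 (-3.20, adjusted p 0.0383) and Gata3 (-2.13, adjusted p 0.0859), beside 4.82% of genes. Against E2.75 wild-type embryos there were 4 of 13, beside 4.54% of genes: Krt8 (1.94), Klf5 (1.38) and Dppa5a (1.34) were higher and Tead4 (-1.42) lower in null embryos; after spike-in scaling Tead4 was still called, and Krt8 (1.67, adjusted p 0.159), Klf5 (0.84, 0.281) and Dppa5a (0.82, 0.267) were not. From E2.5 to E2.75, 4 of the 13 were called lower in wild-type embryos, beside 7.38% of all genes, and 1 in null embryos, beside 3%. Without the library with label E2.5 wild-type replicate 6 the wild-type comparison called 4, Dppa3, Dppa5a, Krt8 and Klf5 (beside 8.26%). The part of this stage change in the E2.75 differences was not tested. Of the cumulus and granulosa markers 2, and of the oocyte and polar body markers 7, were tested for null against het, with 0 called. The part of these marker differences in the values of the members was not tested.

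In the embryonic stem cells, POU6F1-mCherry peaks of both ChIP replicates lay within 1 kb of a start site at 10 of 10 members, beside 65.4% of the genes tested in embryos. Each replicate had a list of peaks against each of 2 controls, of 82694 and 31348 peaks in replicate 1 and 24524 and 3630 in replicate 2, and a gene counted if either list held a shared peak. The series lists 1 library of each control, so the 2 replicates appear to share their controls. In the shorter lists alone 3 members had one, Bax, Bbc3 and Trp53, beside 23.9% of genes. At a q of 1e-05 or less 9 did, all but Eda2r, beside 50.2%. The Eda2r region, at chrX:97376622-97376736 and 414 bases from the nearest start, had a fold enrichment of 3.86 and 4.84 in the replicates. The shared peak with the greatest enrichment at a member was that of Bbc3 at chr7:16309290-16309686, with 25.8 and 10.5, and that of Bax at chr7:45466482-45467040 had 23.9 and 10.1. The peak at chr11:40754917-40755527 overlaps the Ccng1 promoter stretch given earlier (14.2 and 4.70). The nearest shared peak of Cdkn1a, at chr17:29093568-29093778 (18.8 and 6.70), lies at another annotated start of the gene, outside the promoter given for it. These cells carry transfected POU6F1-mCherry and are not embryos, and no peak was compared with expression.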

How the data were processed

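RNA of 23 single embryos was sequenced by the authors, trimmed with cutadapt 3.4, aligned to GRCm38 with STAR 2.7.8a and counted with HTSeq 0.11.4. The deposited files hold a raw count per gene, for 55487 genes and 92 ERCC spike-ins. The counting took no account of strand, so exon bases that a gene shares with another on either strand are given. For the ChIP-seq, the authors aligned with Bowtie2 2.4.4 and called peaks with MACS2 2.2.7.1, and the deposited peak lists give a score, a fold enrichment (the ratio of ChIP to control signal), and the -log10 of p and of q.

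Counts were filtered with filterByExpr, scaled by TMM and tested with edgeR 4.0.16 (R 4.3.3), by genotype with the stages combined, by genotype within each stage, and by the 6 groups for stage and interaction. A gene was called at a Benjamini-Hochberg adjusted p under 0.1, over all genes tested, with a log2 fold change beyond 1. DESeq2 1.42.0, RLE factors, spike-in library sizes, no filter, thinned libraries, no fold threshold, stage as a covariate, a replicate block, the 2 compared genotypes alone, and leaving out each embryo were run as alternatives. The fits without the library with label E2.5 wild-type replicate 6, where the comparison does not hold it, and those without it with spike-in library sizes, with DESeq2, for the gene lists and for the deviations, were chosen after seeing the data. Deviations are log2 CPM (prior count 2) minus the group mean. Intervals are 95%, a count of 0 is given with the level that 3 counts would have, and such limits cover counting error only. Tables and figures used Python 3.11.15, numpy 2.4.6, pandas 2.3.3 and matplotlib 3.10.9.

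The members and lists were chosen with earlier results of these data known. The lists were p53 regulators, the p53 family, other p53 targets for arrest, apoptosis, metabolism and redox, and DNA repair and replication, the BCL2 family and caspases, mitotic genes lowered through p53 and p21, and markers of the preimplantation embryo, of cumulus and granulosa cells, and of oocyte and polar body. Genes named from them are those called in a genotype comparison, at most 4 for each list and comparison by adjusted p, and the most abundant per kilobase; the 5 genes most like Cdkn1a are those of highest Pearson r outside the members.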

Additional observations from a re-analysis of the deposited data

Results flagged for a closer look

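Within groups of 4 to 6 embryos the levels of 10 members were searched for an embryo far from the rest, by the gap to its nearest neighbour against the range of the group. Of 30 such sets of values 10 had one, where chance flags about 1 in 20 groups if values are normal, and the members are not independent of each other within an embryo. All 10 were high values and came from 2 embryos. Levels in CPM are skewed toward high values; on log2 CPM the same search found 4 of 30, all high: Ccng1 in E2.5 wild-type replicate 1 and Mdm2, Ccng1 and Trp53inp1 in E2.75 het replicate 3.

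In E2.5 wild-type replicate 1, Mdm2 was at 190 CPM (next highest of the 6 embryos 65.8), Ccng1 at 655 (79.3), Bbc3 at 21.5 (7.01) and Trp53inp1 at 355 (139).

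In E2.75 het replicate 3, Mdm2 was at 255 CPM (next highest of the 5 embryos 57.2), Ccng1 at 405 (109), Bbc3 at 65.8 (13.3), Trp53inp1 at 367 (116), Sesn2 at 261 (101) and Phlda3 at 340 (129). Neither embryo is a null, and why they differ from their groups was not tested.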

How the results depend on the processing

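For null against het with the stages combined 1 member was called, and 0 were with spike-in library sizes or with stage as a covariate; leaving out 1 embryo gave 0 to 1. For null against wild-type with the stages combined, and at E2.5, leaving out 1 embryo gave 0 to 1, the 1 being Cdkn1a without E2.5 wild-type replicate 1. In this paragraph the ranges over fits that left out 1 embryo are given without the share of all genes, so they have no background beside them. DESeq2 without E2.5 wild-type replicate 6 called 1, Sesn2, between null and wild-type embryos of E2.5 (4.73%). For null against het at E2.75 the count of 1 became 0 with spike-in library sizes, and leaving out 1 embryo gave 0 to 7. Between the stages, wild-type embryos gave 1 member, and 7 with spike-in library sizes (beside 17.5% of all genes), 6 without the filter on low counts (6.26%), 3 with DESeq2 (5.79%), 2 with thinned libraries (10.2%), 2 with no fold threshold (8.61%) and 0 to 5 leaving out 1 embryo. With replicate 6 of E2.5 left out as well, they gave 7 with spike-in library sizes (16%) and 4 with DESeq2 (6.78%). Null embryos gave 0, and 2 with spike-in library sizes (10.8%), 1 without the filter (2.45%), 1 with DESeq2 (4.11%) and 0 to 1 leaving out 1 embryo. The cause was not tested. Counts for the other 5 comparisons kept their value of 0 under every alternative run. Members with POU6F1 peaks went from 10 to 3 with the second peak lists alone and to 9 at the stricter q.

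Of the 220 log2 fold changes of members for null against het under the alternatives, 192 kept sign and side of the threshold, 11 of Cdkn1a kept sign but lost the call, and 17 reversed. With spike-in library sizes Trp53 was at -0.55, Mdm2 at -0.26, Ccng1 at -0.80, Bax at -0.64, Trp53inp1 at -0.35, Sesn2 at -0.35 and Eda2r at -0.32. Trp53 ran from -0.35, without E2.75 null replicate 3, to 0.53 leaving out 1 embryo. Ccng1, near 0 with all embryos, was at -0.0467 without the filter, and from -0.14 to 0.51 leaving out 1 embryo. For null against wild-type 229 of 240 held, 10 reversed and 1, Cdkn1a, gained the call. Ccng1 was at 0.0167 with thinned libraries and from -0.27 to 0.58 leaving out 1 embryo. With spike-in library sizes Trp53inp1 was at -0.18, Sesn2 at -0.31 and Eda2r at -0.26, and Eda2r ran from -0.13 to 0.21 leaving out 1 embryo. The cause was not tested.

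With the replicate number as a block, null against het at E2.75 gave 0 members and 93 genes in place of 696, and Ccng1 with the stages combined was at -0.12. The labels number the embryos and state no pairing. Of 19 embryos with a same-numbered embryo of another genotype, 3 had their highest correlation with it, and the 17 same-numbered pairs had r of -0.11 to 0.09.

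Depth limits Bbc3 most among the members, with counts of 0 to 793 and a median of 44 in a library, and the E2.75 null embryos include the shallowest libraries. Only 2 het embryos stand at E2.5, so leaving out 1 left a lone sample there, whose spread was taken from the other groups. The het embryos are mostly of E2.75 and the null embryos mostly of E2.5, so with the stages combined genotype is partly confounded with stage. RNA level does not measure p53 protein or its activity.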
